A study of Mus musculus with 20 samples.

Results

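The small leucine-rich proteoglycans examined here were 10 genes of the intervertebral disc transcriptome, namely Dcn, Bgn, Fmod, Lum, Prelp, Ogn, Aspn, Omd, Epyc and Chad. They were taken by symbol from a table of 51789 genes, and all 10 symbols were found there. RNA was sequenced from nucleus pulposus (NP, the gel-like centre of each disc) and annulus fibrosus (AF, the lamellar ring around it) of BL6 mice aged 24 months. Both groups of mice had received intraperitoneal injections from 18 months of age over 6 months. The vehicle group received DMSO alone. The MDL-800 group received MDL-800, a small-molecule activator of the deacylase SIRT6, in an equal volume of DMSO. This gave 4 groups of 5 libraries: NP vehicle (libraries 1, 2, 3, 5 and 6), NP MDL-800 (15, 18, 19, 20 and 22), AF vehicle (8, 9, 10, 12 and 13) and AF MDL-800 (25, 27, 28, 29 and 30). No group of untreated or younger mice was analysed here, so every value comes from old, DMSO-exposed mice. The labels speak of primary cells in one place and of dissected tissue put straight into a stabiliser in another, and dose and sex are not given in the labels used here. They do not say whether libraries of a group came from separate animals, so p-values measure the spread between these samples, which may be technical.

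Small leucine-rich proteoglycans are secreted proteins built around a core of leucine-rich repeats, many of which carry chondroitin, dermatan or keratan sulfate chains. They bind collagen fibrils and set their width and spacing, and several of them also bind growth factors such as TGF-beta. In the disc, the annulus is a fibrous, tendon-like tissue rich in type I collagen, and the nucleus is a hydrated gel rich in aggrecan and type II collagen. Decorin, biglycan and asporin (Dcn, Bgn, Aspn) form class I of the family. Fibromodulin, lumican, PRELP and osteomodulin (Fmod, Lum, Prelp, Omd) form class II, epiphycan and osteoglycin (Epyc, Ogn) class III, and chondroadherin (Chad) belongs to a further, non-canonical class.

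The family is arranged in gene clusters. On GRCm38, Dcn (chr10:97479609-97518143), Lum (chr10:97565128-97572703) and Epyc (chr10:97644068-97682454) follow each other on the plus strand of chromosome 10, with Kera, the keratocan gene of the same family, between Lum and Epyc. On chromosome 13, Aspn (chr13:49544443-49567565), Omd (chr13:49582462-49592822) and Ogn (chr13:49608046-49624501) lie side by side on the plus strand, preceded by Ecm2, a related leucine-rich repeat gene. Prelp (chr1:133910304-133921414, minus strand) and Fmod (chr1:134037254-134048277, plus strand) are direct neighbours among coding genes on chromosome 1. Bgn (chrX:73483602-73495933) and Chad (chr11:94565047-94569127) have no member beside them. All 10 are annotated as protein-coding.

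Upstream sequences of 250 bases, ending at the base before the annotated start, were read from RefSeq on GRCm38.p6 for 8 of the 10 genes. Dcn and Lum have no entry in that table. Those of Fmod and Prelp, which were abundant in both tissues, are shown beside those of Chad and Aspn, which were much lower in NP. Capitals mark TATAAA (the TATA box core) and GGGCGG (the GC box core), searched on both strands together with ACAATG, a SOX core motif.
Fmod, chr1:134037004-134037253, plus strand: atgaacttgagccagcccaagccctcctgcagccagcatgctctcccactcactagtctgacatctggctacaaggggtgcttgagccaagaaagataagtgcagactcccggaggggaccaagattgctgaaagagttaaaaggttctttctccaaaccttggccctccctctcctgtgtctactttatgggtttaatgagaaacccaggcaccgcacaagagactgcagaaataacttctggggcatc
Prelp, chr1:133921402-133921651, minus strand: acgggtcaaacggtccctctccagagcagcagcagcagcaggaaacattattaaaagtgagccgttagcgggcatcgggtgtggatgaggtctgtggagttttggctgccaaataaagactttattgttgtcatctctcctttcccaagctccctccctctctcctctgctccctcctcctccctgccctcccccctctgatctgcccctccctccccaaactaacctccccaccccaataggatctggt
Chad, chr11:94564797-94565046, plus strand: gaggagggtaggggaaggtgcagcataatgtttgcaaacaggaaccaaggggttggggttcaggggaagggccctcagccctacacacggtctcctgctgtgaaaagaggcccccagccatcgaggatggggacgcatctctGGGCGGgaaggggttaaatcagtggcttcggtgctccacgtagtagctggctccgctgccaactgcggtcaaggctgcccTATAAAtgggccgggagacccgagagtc
Aspn, chr13:49544193-49544442, plus strand: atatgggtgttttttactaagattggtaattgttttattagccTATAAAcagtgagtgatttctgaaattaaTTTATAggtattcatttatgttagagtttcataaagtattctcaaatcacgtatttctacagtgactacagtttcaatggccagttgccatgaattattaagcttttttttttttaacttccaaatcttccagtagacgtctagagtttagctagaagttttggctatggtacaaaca

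Neither the Fmod nor the Prelp window holds any of the 3 motifs as spelled. In the Chad window TATAAA begins 28 bases before the start and GGGCGG begins 108 bases before it. The Aspn window holds TATAAA at 207 bases before the start and its complement at 178 bases. Among the other genes, the Ogn window holds 2 overlapping matches to TATAAA, the Bgn window 3 matches to GGGCGG, both Epyc windows at least 1 match to ACAATG and the Omd window none. Among 32851 windows of this length in the table, 12.4% hold TATAAA, 32.7% GGGCGG and 10.7% ACAATG. GC content ran from 30.0% (Aspn) to 64.4% (Bgn), with 51.2% for Fmod and 55.6% for Prelp, against a median of 52.4% over all windows. These matches are descriptions of letters in a window, and no binding was measured.

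Expression is given as FPKM (fragments of a gene, relative to transcript length and to the library's mapped total) divided by a scaling factor for each library, here called scaled FPKM. Differences were tested with limma on log2(scaled FPKM + 1), with Benjamini-Hochberg adjustment over the 16383 genes that reached 1 FPKM in at least 5 of the 20 libraries, and a gene was called at an adjusted p under 0.05. All 10 members passed this filter. Epyc passed it through AF alone, reaching 1 FPKM in 0 of 10 NP libraries and 10 of 10 AF libraries, so it could only appear as higher in AF. Lum reached 1 FPKM in 8 of 10 NP libraries and Aspn and Omd in 7, and the other 6 genes did so in all 20 libraries. The table holds no counts. Depth estimated from the steps of low values lay between 13.0 and 22.0 M fragments.

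The tissue labels were checked on their markers. Of 10 NP markers 9 were tested, and all 9 were called higher in NP than in AF of vehicle mice, among them Krt8 (median 849 against 119), Car3 (19496 against 4369) and T, the brachyury gene (1254 against 212). Under MDL-800, 8 of the 9 were called higher. Noto was at or near 0 everywhere. All 8 AF and tendon markers were called lower in NP in vehicle and 7 of 8 under MDL-800, Tnmd in vehicle having a median of 0.698 against 48.4. Kera, 1 of these 8 and a gene of the same family as the members, passed the filter through AF alone. Its call could thus go in 1 direction only. In vehicle, 21.8% of all genes were called higher in NP and 33.9% lower, and under MDL-800 25.6% and 37.2%. NP markers were also measured in AF. The summed NP markers ran from 2566 to 15499 in AF vehicle, highest in library 9, against 26362 to 31552 in NP vehicle.

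In vehicle mice, 8 of the 10 genes were lower in NP than in AF and 0 were higher. Of all genes tested, 33.9% were called lower in NP and 21.8% higher. Without Epyc, which could be called in 1 direction only, the count was 7 of 9. The 8 were Dcn, Bgn, Aspn, Lum, Omd, Ogn, Epyc and Chad, with differences from -2.83 to -6.57 on the log2 scale. Fmod and Prelp were the exceptions, at 0.48 and -0.51 with intervals that include 0. The median difference of the 10 was -4.08, and that of all genes tested was -0.08. For all 8 the NP and AF libraries did not overlap, as held for 25.9% of all genes in that direction. Of the 8, 7 differed by more than 3, a size that 3.28% of all genes reached together with a call.

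**Figure D1:**
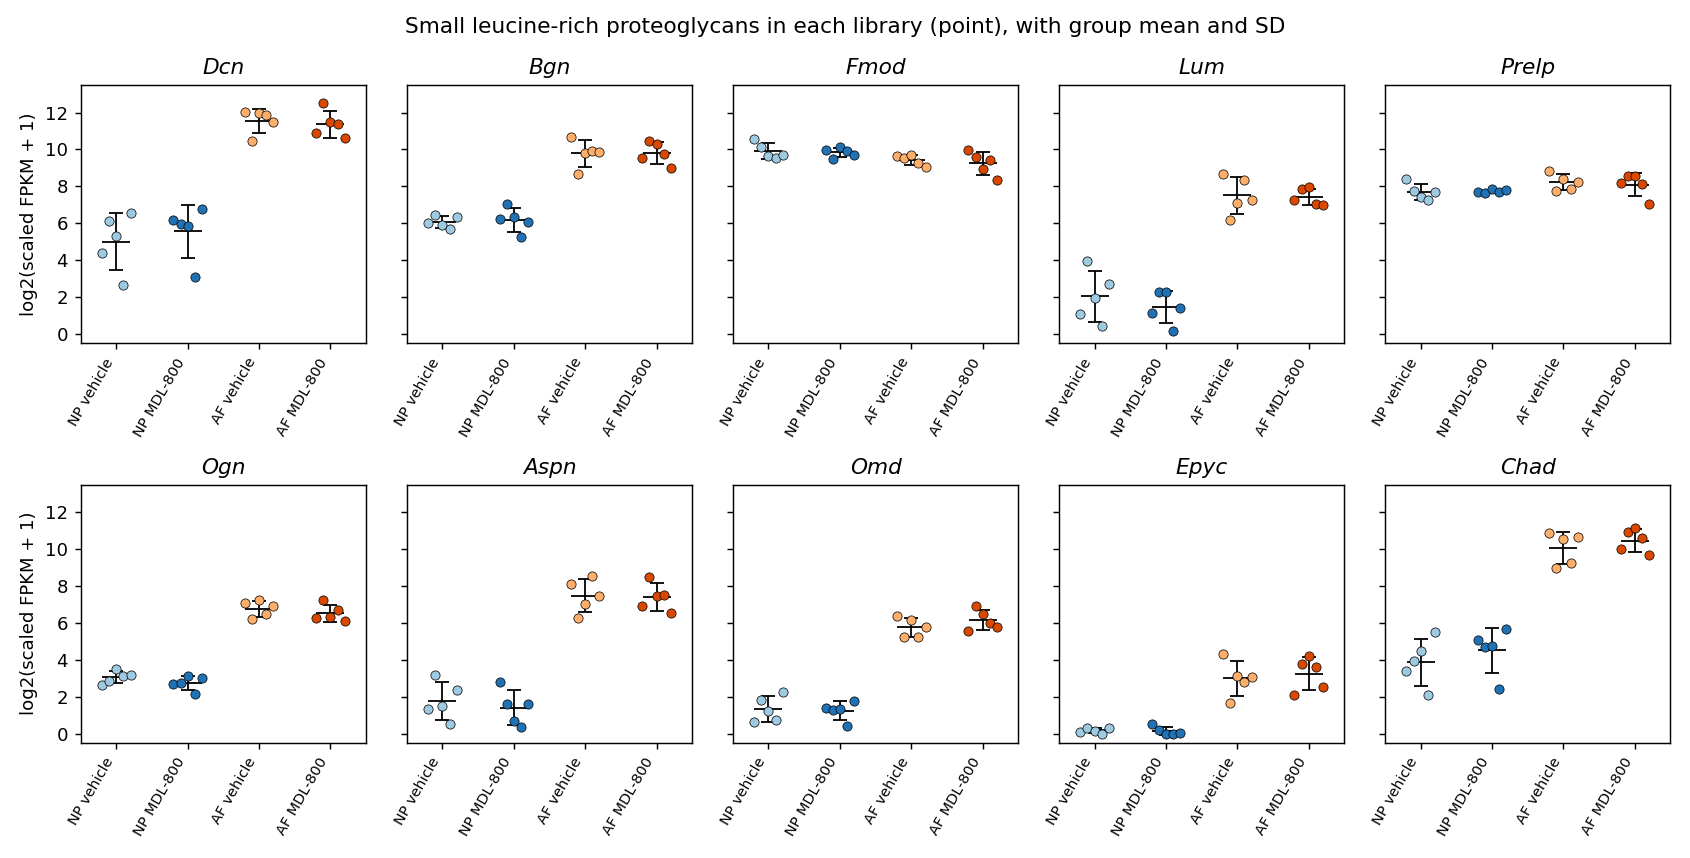
Scaled FPKM of each gene on a log2(value + 1) axis; each point is a library, and bars give the group mean and SD (n = 5). In 8 panels all NP libraries lie below all AF libraries, and in the panels of Fmod and Prelp the tissues overlap.

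Among class I genes, Dcn encodes decorin, a collagen-binding proteoglycan that also binds TGF-beta. Its scaled FPKM in NP vehicle libraries 1, 2, 3, 5 and 6 was 19.7, 67.6, 38.5, 5.22 and 91.8. AF vehicle libraries 8, 9, 10, 12 and 13 read 4215, 1392, 3993, 3706 and 2865. NP libraries differed among themselves 17.6-fold, library 5 being the lowest, but the highest of them stayed far under AF library 9, the lowest of AF. The means were 44.6 ± 35.2 and 3234 ± 1150 (SD, n = 5), a 72.6-fold gap, with a log2 difference of -6.57 (SE 0.65, limma adjusted p = 2.19e-05). Only 2 of the 16383 genes had a lower log2 difference. In MDL-800 mice Dcn was at 70.9, 60.5, 57.3, 7.53 and 109 in NP libraries 15, 18, 19, 20 and 22, against 1879, 5852, 2840, 2646 and 1553 in AF libraries 25, 27, 28, 29 and 30. NP library 20 lay far under the other 4, and the tissues again did not overlap (log2 difference -5.80, SE 0.63, limma adjusted p = 2.08e-05).

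Bgn encodes biglycan, the closest relative of decorin. It was at 63.9, 84.8, 57.9, 50.5 and 81.2 in the NP vehicle libraries, against 1668, 402, 907, 983 and 939 in the AF vehicle libraries, in the same library order. Under MDL-800 it was at 74.7, 131, 80.6, 37.0 and 66.5 in NP, against 730, 1388, 1255, 860 and 519 in AF. The NP vehicle libraries were much closer together for Bgn than for Dcn, 1.68-fold from lowest to highest, and in neither treatment did NP and AF overlap. The log2 difference was -3.73 in vehicle (SE 0.32, limma adjusted p = 9.82e-06) and -3.61 under MDL-800 (SE 0.34, limma adjusted p = 8.68e-06). The pair also changed rank between tissues: Dcn over Bgn was 0.103 to 1.13 in NP vehicle and 2.53 to 4.40 in AF vehicle, and 0.203 to 1.64 and 2.26 to 4.22 under MDL-800.

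Aspn encodes asporin, a class I protein that carries a run of aspartates and lacks the glycosaminoglycan chains of decorin. It was at 1.55, 8.14, 1.79, 0.444 and 4.14 in NP vehicle, against 273, 74.9, 128, 375 and 178 in AF vehicle. Under MDL-800 the values were 6.04, 1.99, 0.595, 0.286 and 2.00 in NP and 121, 364, 176, 185 and 92.2 in AF. Aspn was under 1 scaled FPKM in NP libraries 5, 19 and 20 and far above every NP library in all AF libraries. Its log2 difference was -5.70 in vehicle (SE 0.53, limma adjusted p = 1.52e-05) and -6.00 under MDL-800 (SE 0.47, limma adjusted p = 3.05e-06).

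In class II, Fmod encodes fibromodulin, a keratan sulfate proteoglycan that binds type I and type II collagen and steers fibril cross-linking. Its values were 1509, 1131, 786, 742 and 838 in NP vehicle and 799, 730, 845, 616 and 527 in AF vehicle. With MDL-800 they were 1014, 718, 1104, 956 and 829 in NP and 1010, 763, 483, 684 and 326 in AF. NP libraries 1 and 2 were above all AF vehicle libraries, while libraries 3, 5 and 6 lay among them. The log2 difference was 0.48 in vehicle (95% interval -0.02 to 0.97, limma adjusted p = 0.0946) and 0.59 under MDL-800 (-0.02 to 1.19, limma adjusted p = 0.0847). Neither passed the test in the main fits. Under MDL-800 the difference passed with a replicate block on a number shared in the column names. With each library's GC trend removed the difference did pass, at 0.87 in vehicle (limma adjusted p = 0.00886) and 0.94 under MDL-800 (limma adjusted p = 0.0126), and it passed in vehicle with quantile normalization (0.52, limma adjusted p = 0.0499) and under MDL-800 without AF library 25 (0.77, limma adjusted p = 0.0217).

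Prelp encodes PRELP, a class II protein with a basic, heparin-binding end that links basement membranes and collagen. It was at 331, 217, 172, 151 and 208 in NP vehicle, against 447, 212, 342, 234 and 301 in AF vehicle. Under MDL-800 it was at 204, 196, 228, 204 and 222 in NP, against 288, 382, 377, 274 and 130 in AF. The vehicle groups overlapped; under MDL-800 all AF libraries except library 30 were above all NP libraries. The log2 difference was -0.51 in vehicle (95% interval -1.05 to 0.04, limma adjusted p = 0.103) and -0.37 under MDL-800 (-0.93 to 0.20, limma adjusted p = 0.236). It passed the test in vehicle without NP library 1 (-0.67, limma adjusted p = 0.028) and with unscaled FPKM (-0.57, limma adjusted p = 0.0497). In vehicle it also passed with a replicate block on a number shared in the column names. Under MDL-800 it passed without AF library 30 (-0.63, limma adjusted p = 0.00149).

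Lum encodes lumican, the keratan sulfate proteoglycan that shares its collagen binding site with fibromodulin. It was at 1.08, 14.5, 2.91, 0.335 and 5.58 in NP vehicle, against 411, 71.2, 135, 320 and 154 in AF vehicle. Under MDL-800 it was at 1.22, 3.77, 3.81, 0.116 and 1.67 in NP, against 152, 226, 250, 132 and 128 in AF. Among NP libraries, 2 was the highest and 5 and 20 the lowest, and no NP library came near AF. In NP library 20 the value rests on an estimated 5 fragments. Lum differed by -5.48 in vehicle (SE 0.66, limma adjusted p = 6.69e-05) and by -5.97 under MDL-800 (SE 0.39, limma adjusted p = 1.32e-06). Fmod exceeded Lum 77.8-fold to 2213-fold in NP vehicle and 1.93-fold to 10.3-fold in AF vehicle.

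Omd encodes osteomodulin, a keratan sulfate protein known from bone and dentin. It was at 0.557, 2.49, 1.38, 0.651 and 3.80 in NP vehicle, against 83.0, 36.9, 71.1, 37.0 and 54.1 in AF vehicle. Under MDL-800 it was at 1.64, 1.46, 1.57, 0.317 and 2.43 in NP, against 46.8, 119, 87.4, 62.0 and 53.4 in AF. Levels in NP were close to 1 scaled FPKM, and all AF libraries were above them. The log2 difference was -4.43 in vehicle (SE 0.34, limma adjusted p = 6.57e-06) and -4.89 under MDL-800 (SE 0.30, limma adjusted p = 1.14e-06).

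In class III, Ogn encodes osteoglycin, also called mimecan. Its values were 5.19, 6.24, 10.4, 7.89 and 7.91 in NP vehicle and 132, 72.0, 149, 88.6 and 121 in AF vehicle. Under MDL-800 they were 5.39, 5.66, 7.55, 3.34 and 7.23 in NP and 74.9, 151, 78.7, 103 and 66.9 in AF. Ogn was the most even of the AF-rich genes within NP after Bgn, 2.00-fold from lowest to highest in vehicle, and library 5, the lowest for 8 of the 10 genes, was not low for it. Its log2 difference of -3.72 in vehicle had the smallest p of the 10 (SE 0.22, limma adjusted p = 3.98e-06), and it was -3.79 under MDL-800 (SE 0.24, limma adjusted p = 1.30e-06).

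Epyc encodes epiphycan, a dermatan sulfate proteoglycan known from growth cartilage. It was at 0.0750, 0.258, 0.0911, 0 and 0.237 in NP vehicle, against 18.7, 2.17, 7.83, 5.94 and 7.51 in AF vehicle. Under MDL-800 it was listed at 0 in NP libraries 19 and 20 and lay between 0.0309 and 0.418 in the other 3, against 3.21, 12.9, 17.6, 11.4 and 4.80 in AF. Epyc was the least abundant of the 10 in every group. Its log2 difference of -2.83 in vehicle (SE 0.38, limma adjusted p = 0.00012) and -3.10 under MDL-800 (SE 0.37, limma adjusted p = 3.92e-05) is bounded by the 1 added before taking logs.

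Chad encodes chondroadherin, a cartilage protein without glycosaminoglycan chains that binds type II collagen and integrins. It was at 9.46, 14.2, 21, 3.21 and 44.1 in NP vehicle, against 1860, 496, 1523, 608 and 1622 in AF vehicle. Under MDL-800 it was at 33.4, 24.4, 25.8, 4.44 and 49.7 in NP, against 1031, 1963, 2235, 1563 and 811 in AF. As with Dcn, NP libraries 5 and 20 were the lowest and 6 and 22 the highest. Chad differed by -6.19 in vehicle (SE 0.60, limma adjusted p = 1.88e-05) and by -5.95 under MDL-800 (SE 0.54, limma adjusted p = 6.47e-06). The ratio of Chad to Dcn was 0.209 to 0.614 in NP vehicle and 0.164 to 0.566 in AF vehicle. Under MDL-800 it was 0.403 to 0.59 in NP and 0.335 to 0.787 in AF. These ranges overlapped between the tissues, although the vehicle means of Dcn and Chad differed 72.6-fold and 66.4-fold.

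Under MDL-800 the same 8 genes were lower in NP and 0 were higher, with 37.2% of all genes called lower and 25.6% called higher. Epyc, among the 8, passed the filter through AF alone, so it could again only come out lower. The groups did not overlap for any of the 8, as held for 30.5% of all genes in that direction. The median difference of the 10 was -4.34 and that of all genes was -0.08. The vehicle and MDL-800 comparisons use different libraries. All 8 differences were called in every fit that left out a library, in both treatments.

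**Figure D2:**
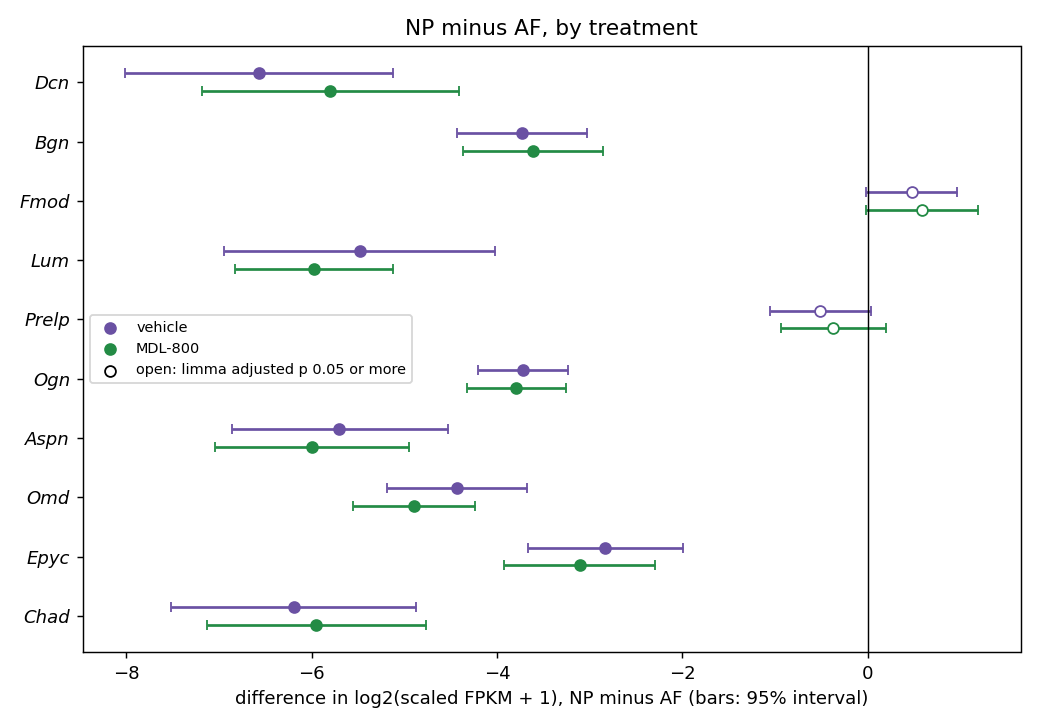
Difference in log2(scaled FPKM + 1), NP minus AF, for each gene in vehicle (upper) and MDL-800 mice (lower), with 95% intervals; filled points passed the limma test. Fmod and Prelp lie near 0 and the other 8 between -2.83 and -6.57.

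These differences changed the make-up of the family's RNA. Because FPKM is per length, levels of different genes are set side by side here. The length used for each gene is not given in the sources used here, and ranks and shares depend on it. In NP vehicle, Fmod (1001 ± 322) stood above Prelp (216 ± 69.7) and Prelp above Bgn (67.7 ± 14.8), with no overlap between neighbours in this order. From Bgn through Dcn, Chad, Ogn, Lum and Aspn to Omd (1.77 ± 1.37), each gene overlapped the next (SD, n = 5). In AF vehicle the order began with Dcn (3234 ± 1150), Chad (1222 ± 625), Bgn (980 ± 451) and Fmod (703 ± 131), of which each overlapped the next. Fmod was apart from Prelp (307 ± 93.9), and Lum, Aspn, Ogn and Omd followed with overlaps, then Epyc (8.44 ± 6.18), apart from Omd. Among the 16383 genes ranked by mean, Fmod stood at 52 in NP vehicle, and Dcn stood at 9 and Chad at 37 in AF vehicle.

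Fmod made up 73.0% ± 5.04 and Prelp 15.8% ± 1.09 of the summed scaled FPKM of the 10 genes in NP vehicle (SD, n = 5). In AF vehicle, Dcn made up 45.4% ± 5.54, Chad 16.9% ± 5.74, Bgn 13.5% ± 2.27 and Fmod 11.2% ± 5.52. The sum itself was 1365 ± 390 in NP vehicle and 7048 ± 2347 in AF vehicle. Under MDL-800, Fmod took 70.2% ± 6.62 in NP, and Dcn 41.3% ± 6.73 and Chad 22.3% ± 4.36 in AF. Fmod was the leading gene in all 10 NP libraries and Dcn in all 10 AF libraries. The Fmod share in AF was highest in vehicle library 9, at 20.9%.

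**Figure D3:**
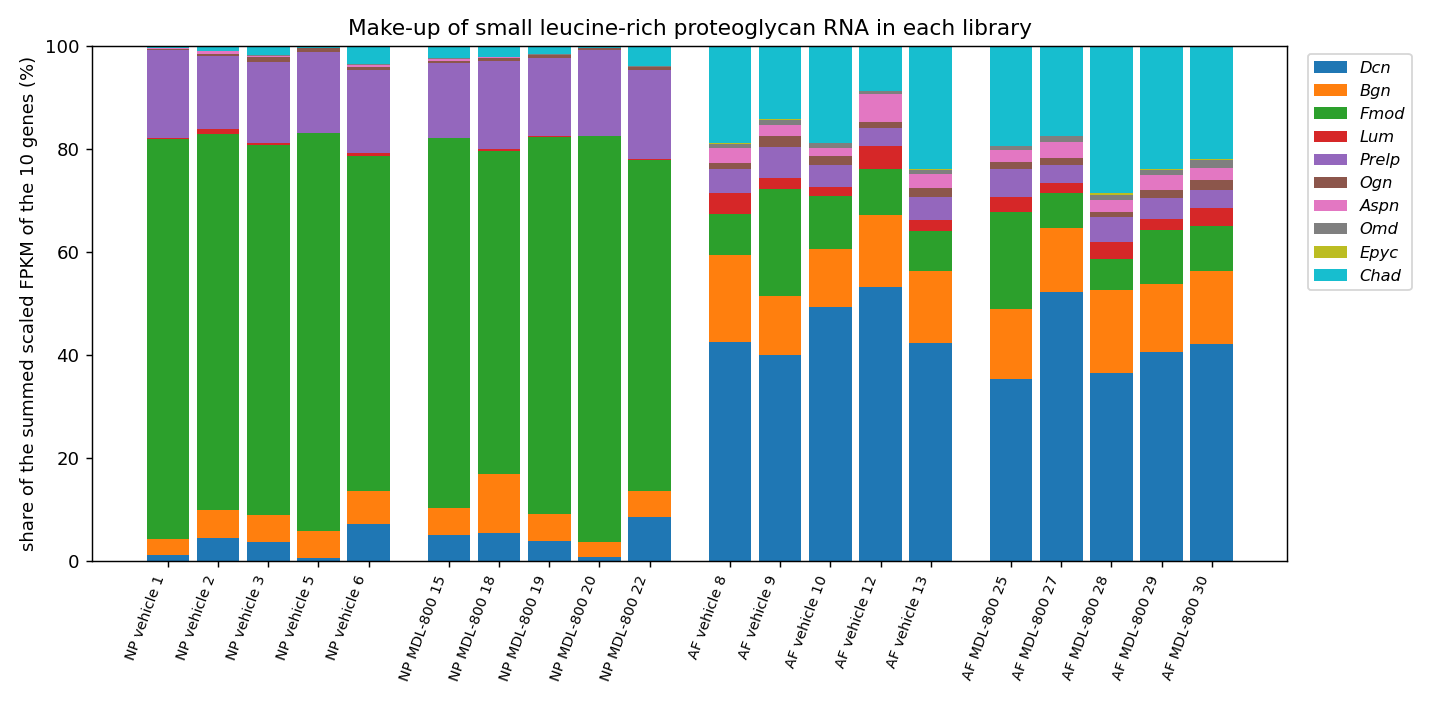
Share of each gene in the summed scaled FPKM of the 10 genes, 1 bar per library. Fmod and Prelp fill most of every NP bar, and Dcn, Chad and Bgn most of every AF bar.

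Within groups, a few libraries were low for most of the genes. NP vehicle library 5 was the lowest of its group for 8 of the 10 genes, NP MDL-800 library 20 for 7, AF vehicle library 9 for 9 and AF MDL-800 library 30 for 8. NP library 5 had the lowest fibroblast, endothelium, adipocyte and cartilage marker sums of its group (4.83, 3.53, 0.779 and 85.1). Its AF marker and bone sums (13.6 and 10.2) were not the lowest, those of NP library 1 being 9.77 and 10.1. AF library 9 had the highest NP marker sum of its group (15499) and the lowest AF marker sum (334, others up to 833). AF library 30 had the lowest AF marker sum (215, others up to 819) and the highest neutrophil and red cell sums (31504 and 3222). NP library 20 had the lowest AF marker, bone and endothelium sums of its group (9.68, 1.57 and 1.71). Its red cell, Schwann cell, adipocyte, macrophage and neutrophil sums were also the lowest (27.6, 11.0, 1.92, 47.1 and 180). Its fibroblast sum (6.95) was not the lowest, that of NP library 19 being 5.74, nor were its skeletal muscle (21.9) and cartilage (115) sums. The fibroblast sums of AF libraries 9 and 30 were the lowest of their groups (158 and 170). The part of these cells in the low values was not tested. Without AF library 9 the Dcn difference in vehicle was -6.85, without NP library 5 it was -5.98, and without NP library 20 or AF library 30 the difference under MDL-800 was -5.18 or -5.99.

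Markers of neighbouring tissues moved with the tissue comparison. In vehicle mice all tested markers of skeletal muscle (8 of 8), red blood cells (7 of 7), bone (7 of 7), loose connective tissue fibroblasts (6 of 6), endothelium (6 of 6), Schwann cells (5 of 5), adipocytes (5 of 5), macrophages (7 of 7) and neutrophils (7 of 7) were lower in NP. Among these, 3 of the bone, 3 of the endothelium, 1 of the Schwann cell and 1 of the adipocyte markers passed the filter through AF alone. Those could only be called lower. Of all genes, 33.9% were called lower in NP in vehicle and 37.2% under MDL-800. Summed fibroblast markers ran from 4.83 to 11.5 in NP vehicle and from 158 to 455 in AF vehicle. Neutrophil markers ran from 195 to 2972 and from 6939 to 18132, and skeletal muscle markers from 10.5 to 1103 and from 912 to 7926. Bone markers ran from 10.1 to 93.8 and from 249 to 1153. Endplate and growth plate cartilage was the exception in vehicle, with 2 of 4 tested markers lower. The sums overlapped there (85.1 to 120 in NP and 76.8 to 320 in AF), and Matn1 was at 0 in all NP vehicle libraries. Under MDL-800, 3 of the 4 were lower, and the sums did not overlap (87.9 to 142 in NP and 154 to 413 in AF). Ihh, 1 of these 4 markers, passed the filter through AF alone. The part of these cells in the members' differences was not tested. In such bulk tissue, fewer cells of a type and less RNA per cell cannot be told apart.

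Overlapping genes bear on some of these values. Aspn, Omd and Ogn lie within Cenpp, which runs on the opposite strand and encodes a centromere protein, and Cenpp itself read 1.36 to 1.77 in NP vehicle and 7.04 to 10.3 in AF vehicle. Chad overlaps Acsf2 on the opposite strand, which read 11.9 to 16.5 and 14.0 to 23.1. The libraries were stranded, but whether strand was used in counting is not given in the sources used here, so reads of such pairs may not be separated.

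Other genes of the wider family followed the tissue as well. Kera, Tsku, Podn, Podnl1 and Ecm2 were tested, and 5 of 5 were lower in NP vehicle than in AF vehicle (4 of 4 without Kera). Of all genes, 33.9% were called lower in that comparison. Optc, Nyx and Nepn did not reach the filter. Kera was listed at 0 in 4 of 5 NP vehicle libraries and was at 4.45 to 15.2 in AF vehicle. Like Epyc it passed the filter through AF alone, so its call could go in 1 direction only, and it is also among the AF markers above. Ecm2, next to Aspn, was at 2.57 to 8.81 and 28.4 to 86.0 (-3.29, SE 0.33, limma adjusted p = 2.21e-05). Tsku, a secreted regulator of growth factor signalling, differed by -1.42 (SE 0.26, limma adjusted p = 0.000988). Podn, for podocan, differed by -0.91 (SE 0.20, limma adjusted p = 0.00262) and Podnl1 by -0.64 (SE 0.16, limma adjusted p = 0.00591), which missed the threshold with quantile normalization (-0.11) and with the GC trend removed (-0.22). Under MDL-800, 4 of 5 were lower, with Podn not called, and 37.2% of all genes were called lower. The 4 include Kera, whose call could again go in 1 direction only. The named genes of the chromosome 10 and chromosome 13 clusters were thus all lower in NP in vehicle. Of the chromosome 10 genes, Epyc and Kera could come out in no other direction. The 2 members on chromosome 1 were the 2 that were not called.

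Counts of called genes in the lists that follow stand against 21.8% of all genes called higher and 33.9% called lower in NP vehicle, and list members were not tested as sets. Of 7 genes of the linkage region, 3 were higher and 1 lower in NP vehicle, with a list median of 0.40. Xylt1, which adds the xylose that starts a chain, was at 172 ± 18.3 in NP against 61.4 ± 11.0 in AF (SD, n = 5; log2 difference 1.48, limma adjusted p = 1.34e-05). Pxylp1, a phosphatase that acts on that xylose, differed by -0.66 (limma adjusted p = 0.0128), a call lost with quantile normalization (-0.39) and with the GC trend removed (-0.29). Of 15 tested chondroitin and dermatan sulfate enzymes, 3 were higher and 6 lower (median -0.13), shares near those of all genes, and Chst13 passed the filter through AF alone. Csgalnact1, which starts chondroitin sulfate, was at 177 ± 48.1 and 45.4 ± 19.7 (2.01, limma adjusted p = 0.00016). Chst15, a sulfotransferase of the same chains, was at 1.08 ± 0.597 and 13.8 ± 4.91 (-2.81, limma adjusted p = 1.19e-05). Of 7 tested keratan sulfate enzymes, 0 were higher and 4 lower (median -0.75), Fut8, the core fucosyltransferase, by -1.48 (limma adjusted p = 7.75e-06).

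Of 13 collagens of the fibrils and filaments that these proteins bind, 0 were higher and 6 lower in NP vehicle (median -0.92; 21.8% and 33.9% of all genes): Col1a1, Col1a2, Col3a1, Col5a2, Col12a1 and Col14a1. Col14a1, a collagen of fibril surfaces, was at 0.348 ± 0.214 in NP against 28.7 ± 10.1 in AF (SD, n = 5), and passed the filter through AF alone. The 7 not called were Col2a1, Col5a1, Col6a1, Col6a2, Col6a3, Col11a1 and Col11a2, among which Col2a1 was at 134 ± 56.0 and 387 ± 462 (-0.92, limma adjusted p = 0.224) and Col6a1 at 221 ± 50.7 and 245 ± 104 (-0.09, limma adjusted p = 0.77). Col2a1 and Col6a1 were chosen for mention after their values were seen.

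Of 8 tested proteases known to cleave members of the family, 7 were lower and 1 higher in NP vehicle (median -1.98; 33.9% and 21.8% of all genes). Mmp3, or stromelysin, was at 0.291 ± 0.268 in NP against 19.1 ± 7.16 in AF, and passed the filter through AF alone. Htra1, a serine protease that degrades fibromodulin, was the 1 that was higher, at 1795 ± 333 and 582 ± 253 (1.71, limma adjusted p = 0.000402; SD, n = 5). Growth factors and receptors that bind members went both ways, 7 of 12 higher and 5 lower (median 0.53; 21.8% and 33.9% of all genes). Igf1r, the IGF1 receptor, was at 59.1 ± 3.86 and 22.4 ± 2.24 (1.36, limma adjusted p = 3.98e-06). Bmp4 was at 0.0740 ± 0.0809 and 4.37 ± 1.51. Bmp4 and Itga2, an integrin subunit gene, passed the filter through AF alone, so they could only come out lower in NP.

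The treatment comparisons asked whether MDL-800 changed these genes in either tissue. None of the 10 was called in NP (0 of 10, with 0.25% of all genes called and 14.1% of all genes against 0 members at an unadjusted p under 0.05; limma adjusted p from 0.524 to 0.983). The vehicle and MDL-800 values of all 10 genes overlapped, and 4.5% of all genes did not overlap. Dcn averaged 61.1 ± 36.4 under MDL-800 and 44.6 ± 35.2 in vehicle (SD, n = 5), a log2 difference of 0.58 with a 95% interval of -1.24 to 2.40. Chad differed by 0.66 (-0.87 to 2.18) and Lum by -0.57 (-2.0 to 0.85). The intervals of the 2 most abundant genes in NP were narrower than these. Fmod averaged 924 ± 152 and 1001 ± 322, a difference of -0.08 (-0.53 to 0.38), and Prelp 211 ± 13.4 and 216 ± 69.7, a difference of 0.02 (-0.38 to 0.41). Bgn differed by 0.12 (-0.51 to 0.74), Ogn by -0.33 (-0.79 to 0.14), Aspn by -0.38 (-1.60 to 0.84), Omd by -0.09 (-0.85 to 0.67) and Epyc by -0.02 (-0.28 to 0.23).

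In AF, 0 of 10 were called, as were 0 of all genes (0.0%; 1.65% at an unadjusted p under 0.05, and 0 members; limma adjusted p = 1 for each member). The log2 differences ran from -0.26 for Ogn (95% interval -0.83 to 0.31) to 0.41 for Chad (-0.57 to 1.39). Dcn averaged 2954 ± 1705 and 3234 ± 1150 (-0.19, -1.13 to 0.75), Fmod differed by -0.19 (-0.83 to 0.45) and Omd by 0.37 (-0.30 to 1.04). The libraries of both treatments overlapped for all 10 genes, and 0.226% of all genes did not overlap. A different response of NP and AF to MDL-800, tested as an interaction, was called for 0 of 10 members and 0.0% of all genes (limma, 3.73% of all genes and 0 members at an unadjusted p under 0.05). For Dcn it was 0.77 with an interval of -1.25 to 2.80, and for Prelp 0.14 (-0.64 to 0.92). The treatment groups also differed in GC slope, the trend of log2 values on gene GC content, in NP (-0.28 to -0.01 in vehicle and 0.02 to 0.09 under MDL-800). With this trend removed, 0 of 10 members were called in either tissue.

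**Figure D4:**
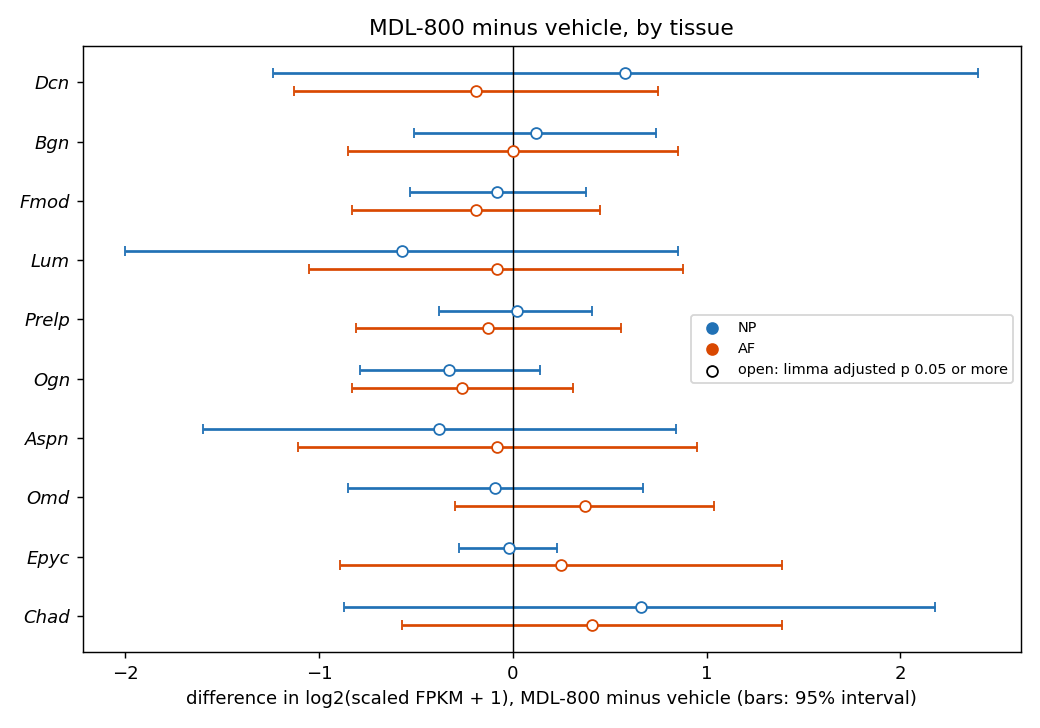
Difference in log2(scaled FPKM + 1), MDL-800 minus vehicle, for each gene in NP (upper) and AF (lower), with 95% intervals. All 20 intervals include 0, and those of Dcn, Lum, Aspn and Chad in NP are wide.

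Among the enzymes, collagens, proteases and binding partners, 1 gene was called with treatment. Chst12, a chondroitin 4-O-sulfotransferase, rose in NP from 69.4 ± 18.5 to 139 ± 18.4 (SD, n = 5; log2 difference 1.02, SE 0.16, limma adjusted p = 0.0411). This call was kept in the fit without vehicle library 6 and lost in the other 9 fits that left out a library, with limma adjusted p up to 0.133. It was also lost in 4 of the 8 other settings: with no further scaling (limma adjusted p = 0.0723), with no filter (0.125), with all 4 groups in the fit (0.13) and with no mean-variance trend (0.0528). In AF it differed by 0.31 (limma adjusted p = 1), and the difference between tissues was 0.71 (SE 0.38, limma adjusted p = 1).

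Genes most like each member were found from the correlation of log2 values over all 20 libraries after the mean of each group was subtracted, among 10059 genes, so that tissue and treatment means did not enter. The libraries share depth and admixed tissue, and the coefficients are descriptions. Dcn was most like Cilp and Serpinf1 (r = 0.92 each) and Chad was close to Comp (0.94), the cartilage oligomeric matrix protein gene. Bgn was most like Sulf1 and Dpysl3 (0.92 each). Lum was most like Col5a2 (0.91) and Mmp2 (0.89), and Aspn most like Mmp2 (0.89) and Col3a1 (0.85), which encodes type III collagen. Fmod was most like Cobll1 (0.93) and Smoc1 (0.92). Prelp was most like Papss2 (0.90), which makes the sulfate donor of the chains, and Colgalt2 (0.89), which glycosylates collagen. Ogn came closest to Fibin (0.87) and Mkx (0.85), the latter a tendon transcription factor, Omd to Wif1 and Serpine2 (0.87 each), and Epyc to B3gnt9 (0.88) and Ltbp2 (0.86).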

How the data were processed

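The authors deposited 1 table of FPKM values, rounded to 2 decimals, with a column per library. STAR 2.7.11b and the build mm10 are named in the submitters' processing notes, and the counting program and annotation are not given in the sources used here. Per the labels' protocols, stranded total RNA libraries were made from 50 ng input, with ribosomal depletion and 14 PCR cycles.

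Columns were matched to samples by name. FPKM was divided by a library factor (0.933 to 1.06), a median of ratios taken over the 11308 genes that reached 1 FPKM in each of the 20 libraries. Tests used limma 3.58.1 (eBayes with trend, two-sided) in R 4.3.3 on log2(value + 1), which understates changes of low genes, with the 2 groups compared in the fit. The difference between tissues used all 4 groups. Alternatives changed scaling, pseudocount, filter, trend, GC content and libraries. Scripts were tested on simulated data. Coordinates are from GENCODE M21 (GRCm38), which holds 51596 of the 51789 identifiers. Depth was estimated from steps of low values, of which 80.7% to 85.0% fell on whole fragments, and entered no test.

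Named genes were all members and related genes, the called partner with the smallest p in each direction in vehicle, partners called with treatment, and the 2 genes most like each member with a mean of at least 5 FPKM. For Chad, 1 of these 2 is not reported here. Members and lists were chosen with earlier results of these data known.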

Additional observations from a re-analysis of the deposited data

Results flagged for a closer look

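Dcn in NP MDL-800 library 20 stood apart from the rest of its group. It was at 7.53 scaled FPKM, and the other 4 libraries lay between 57.3 and 109. On the log2 scale its gap to the nearest library, as a share of the group's range, was 0.751, beyond Dixon's 95% critical value. It was the only such value among 40 groups of 5 examined (10 genes in 4 groups). Chance alone gives about 1 such value in every 20 independent groups. The groups here share libraries, and the cause of the low value was not tested. In the same library Lum, Aspn, Omd and Chad were also the lowest of the group, at 0.116, 0.286, 0.317 and 4.44. Bgn and Ogn were the lowest as well, at 37.0 and 3.34, while Fmod and Prelp, at 956 and 204, were not. Without this library the NP minus AF difference of Dcn under MDL-800 was -5.18, and it was still called.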

How the results depend on the processing

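The 8 lower members of both tissue comparisons kept their direction and call under each alternative run and in each fit that left out a library. Fmod was called higher, making 1 higher member, with quantile normalization and with the GC trend removed in vehicle, and in MDL-800 mice with the GC trend removed, with the replicate block and without AF library 25 (range 0 to 1 over fits that left out a library). Quantile normalization moved the median of all genes in vehicle from -0.08 to 0.20 and the share of lower calls from 60.8% to 37.7%, and removal of the GC trend moved them to 0.23 and 36.8%. Under MDL-800 the share went from 59.3% to 38.3% and 36.8%, and Podn, not called, turned to 0.06 with quantile normalization. The cause was not tested. Members called with treatment stayed at 0 throughout.

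The 41 genes called with treatment in NP became 18 with no further scaling or no trend, 70 with quantile normalization, 7 with no filter, 74 with the stricter filter and 4 with all 4 groups in the fit, and ranged from 2 to 189 over fits that left out a library. In AF and for the difference between tissues the range was 0 to 1. Small treatment differences changed sign. With the GC trend removed in NP, Prelp was at -0.06 and Epyc at 0.05. In AF, Bgn was at -0.04 with quantile normalization and -0.01 with the GC trend removed. Over fits that left out a library, the ranges were Dcn -0.01 to 1.20, Bgn -0.09 to 0.35, Fmod -0.17 to 0.08, Prelp -0.10 to 0.18, Omd -0.26 to 0.15 and Epyc -0.11 to 0.01 in NP, Dcn -0.48 to 0.00, Bgn -0.28 to 0.23, Fmod -0.37 to 0.04, Lum -0.42 to 0.21, Prelp -0.25 to 0.14, Aspn -0.39 to 0.19 and Epyc -0.08 to 0.58 in AF, and Bgn -0.11 to 0.40, Fmod -0.11 to 0.29, Prelp -0.12 to 0.31, Ogn -0.18 to 0.11, Aspn -0.65 to 0.05, Epyc -0.60 to 0.06 and Chad -0.20 to 0.77 for the difference between tissues.

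Sample titles share no replicate numbers between groups, but column names carry a second number found in both tissues for 5 vehicle and 3 MDL-800 pairs. Deviations of same-numbered libraries correlated at -0.18 to 0.29 and at -0.18 to 0.17. Of 8 NP libraries, 2 correlated best with their own number. The main fits left out pairing, and so few libraries cannot decide the meaning of these numbers. A replicate block on them, added after seeing the data, kept the 8 lower members, ended the call of Podnl1 under MDL-800 (limma adjusted p = 0.0597), and moved Prelp in vehicle to an adjusted p of 0.0308 and Fmod under MDL-800 to 0.0254 (limma). Depth limits Epyc, Aspn, Omd and Lum in NP, where Lum rested on as few as 5 fragments.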
